A study of Mus musculus with 13 samples.

Results

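The flank tumors of mice on the control diet were described alone, without a comparison between diets. Their members were the 6 arrays whose sample labels name the normal diet, out of 13 arrays in the series. Each array carried total RNA of a tumor that had grown from B78H1 cells, a mouse melanoma line without pigment. The line is a clone of B16 and lacks Tap-2 and MHC class I. The hosts were male C57BL/6 mice. They were fed standard chow from 14 days before 100000 cells were injected under the skin of each flank, and the tumors were taken at day 28. The 7 mice of the curcumin group received the same cells and chow with 4% curcumin, and their arrays were used here only to count miRNAs detected throughout the series. The age of the mice and the flank from which each sample was taken are not given in the sources used here. The control tumors are called tumors 1 to 6 after their labels.

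MiRNAs are short RNAs cut from hairpin precursors. Either strand of a hairpin can enter an Argonaute protein, the strand from its left arm being called 5p and that from its right arm 3p. The seed, bases 2 to 8 of the mature strand, directs pairing with target mRNAs, so that miRNAs with equal seeds form a family that can bind the same sites. A tumor sample also holds vessels, blood, immune cells and neighboring tissue, and the array measures the miRNAs of all of them together. Fewer cells of a type and less RNA per cell cannot be told apart in such a sample.

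Each array measured 1079 mouse miRNAs. The summed signal of detected miRNAs, in the scanner's intensity units after background subtraction, was lowest in tumor 3 at 151170 and highest in tumor 5 at 245221, followed by tumor 2 at 206756. Between 313 and 412 miRNAs were called detected per array, again with the highest number in tumor 5. No spot was saturated, and 22.0% to 29.6% of spots were well above background. The software found 293 of the 1079 miRNAs (27.2%) in every control tumor, and these are the base of what follows. A further 646 (59.9%) were detected on none, and 140 lay in between, of which 43 were detected on 1 array, 33 of these in tumor 5. The same arrays carried probes for 57 miRNAs of mouse viruses. Between 8 and 13 of them were called detected per array and 7 on all 6, the brightest being mcmv-miR-M23-1-5p with signals from 129 to 230 and a median of 195. Among the 293 miRNAs, 215 had a median signal below that level and 78 had one above it.

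Mature sequences were taken from RefSeq (GRCm38.p6) by name, which gave a sequence for 231 of the 293 miRNAs and for 15 of the 20 with the highest share of the signal. The following 5 of these 20 are shown, with the seed in capitals, because they were the brightest with a RefSeq sequence apart from the let-7 family. Written 5′ to 3′, they were
mmu-miR-3963: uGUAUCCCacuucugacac
mmu-miR-5100: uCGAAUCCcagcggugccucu
mmu-miR-3968: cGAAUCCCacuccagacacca
mmu-miR-3473b: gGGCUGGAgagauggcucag
mmu-miR-5126: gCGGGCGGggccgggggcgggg

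The let-7 family is shown because it was the brightest family with several members. All of them have the seed GAGGUAG, set in capitals, and differ in the remaining bases.
mmu-let-7a-5p: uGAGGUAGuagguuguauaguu
mmu-let-7b-5p: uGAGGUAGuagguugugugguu
mmu-let-7c-5p: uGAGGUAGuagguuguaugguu
mmu-let-7f-5p: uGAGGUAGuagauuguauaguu
mmu-miR-98-5p: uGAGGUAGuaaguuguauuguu

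A few miRNAs made up most of the signal. The share of the signal, here and below, is the percentage of the summed detected signal of all mouse miRNAs on an array. Different miRNAs are read by different probes, which label and hybridize unequally, so a share describes array signal and not a number of molecules. The brightest miRNA alone held 21.3% to 32.3% (median 28.7%), the 10 brightest 56.1% to 66.1% (median 63.7%), and the 50 brightest 86.1% to 89.5%. On each array 5 to 8 miRNAs were enough for 50% of the signal and 52 to 67 for 90%. In tumor 5 the signal was spread over more miRNAs than in any other tumor.

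The brightest miRNA was miR-3963 in every tumor, with a median share of 28.7%. It lies on chromosome 3 (chr3:151023839-151023857, minus strand). The miRNA with the next highest median share was miR-720, a name later removed from miRBase because its sequence is a fragment of a transfer RNA, with 4.66% to 9.17% (median 6.42%). It was followed by miR-5100, inside the span of the gene Mief2 (chr11:60728698-60728718, plus strand), with 4.26% to 6.70%, by miR-5109 with 2.72% to 6.53%, and by miR-3473b, inside the span of Ccdc162, with 2.08% to 5.72%. Next came miR-3968 inside the span of Trim80 (chr11:115447969-115447989, minus strand) with 2.05% to 3.49% and, after let-7c-5p, miR-5126 inside the span of Dner with 1.95% to 5.10%. Of the 20 miRNAs with the highest median share, 8 carried a number of 1800 or above and so were named late. All miRNAs with such numbers, 58 of 293 in the base, made up 51.9% to 59.1% of the signal, and 32.8% to 41.3% when miR-3963 was left out. They were detected on all 6 arrays in 21.6% of cases, against 29.0% for miRNAs named earlier.

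**Figure D1:**
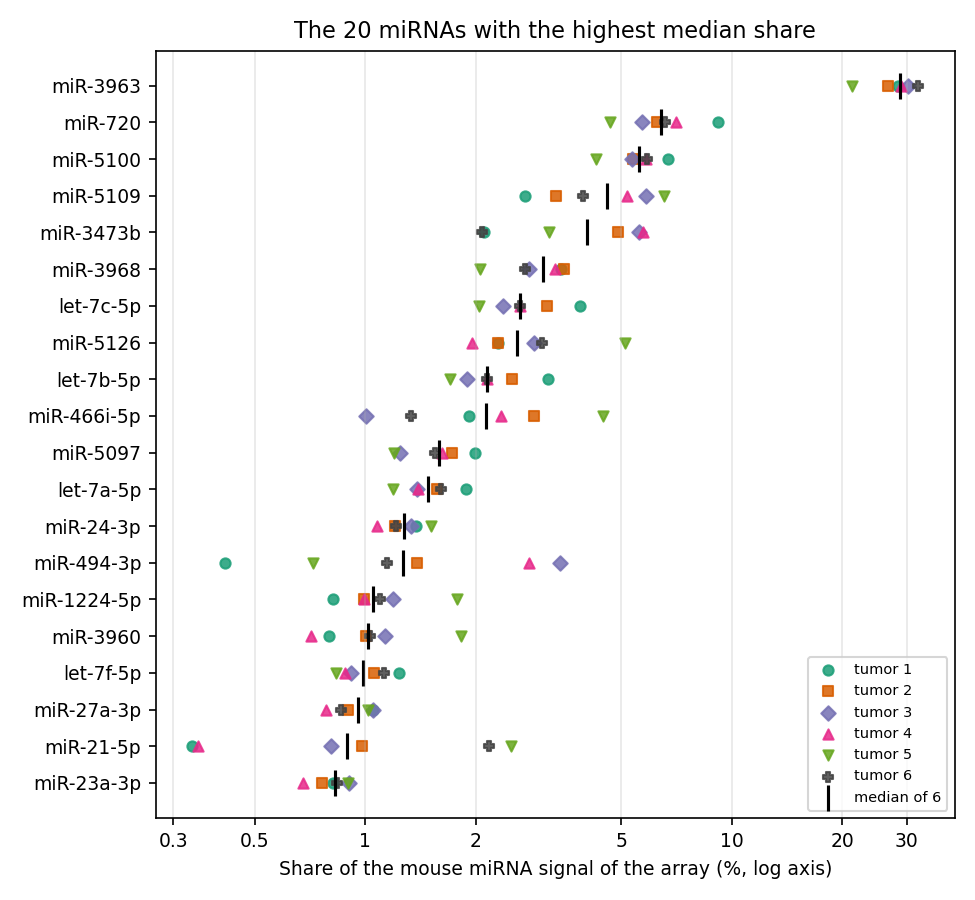
The 20 miRNAs with the highest median share of the signal among those detected on all 6 arrays. Each symbol is a control tumor, the horizontal log axis gives the share in percent, and the black bar marks the median. miR-3963 lies alone above 20%, while miR-494-3p and miR-21-5p have the widest spacing between tumors.

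Among the printed sequences, miR-3963, miR-5100 and miR-3968 hold the letters AUCCCA, beginning at base 4 in miR-3963 and miR-3968 and at base 5 in miR-5100. No other of the 231 base miRNAs with a sequence holds these letters on the mature strand, and over all 875 array miRNAs with a sequence 4 (0.457%) do. Together these 3 miRNAs carried 27.6% to 40.9% of the signal (median 38.3%). The letters were chosen after the sequences had been seen, and the overlap is a description of the sequences.

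Well-known miRNAs followed in the ranking. Besides the let-7 members, the 20 highest included miR-24-3p (1.08% to 1.51%), miR-27a-3p (0.782% to 1.05%) and miR-23a-3p (0.678% to 0.902%), which come from a shared cluster on chromosome 8 and, for miR-24-3p, also from chromosome 13. These 3 kept nearly the same share in every tumor. By contrast, miR-21-5p, a miRNA raised in many cancers, varied 7.43-fold in share. Its signal was 513 in tumor 1 and 662 in tumor 4, and 3369 in tumor 6 and 6146 in tumor 5. Tumors 5 and 6 stood above the other 4, and the rank of miR-21-5p ran from 8 to 43. For miR-494-3p, a member of the imprinted Dlk1-Dio3 cluster on chromosome 12, the share was lowest in tumor 1 at 0.415%, had a median of 1.27%, and was highest in tumor 3 at 3.41%. Tumors 3 and 4 were high in miR-494-3p, so its order of tumors was not that of miR-21-5p. The mature strands of both are shown for reference to these results.
mmu-miR-21-5p: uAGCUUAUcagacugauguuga
mmu-miR-494-3p: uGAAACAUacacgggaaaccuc

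The let-7 family restrains Ras genes, Hmga2 and other growth genes and is kept low in early embryonic cells by Lin28. Here 9 of 10 array miRNAs with its seed were detected on all 6 arrays and together held 7.53% to 12.7% of the signal (median 9.35%). The share was lowest in tumor 5 and highest in tumor 1. Within the family let-7c-5p was brightest in every tumor, with signals from 3582 to 6492 (median 5014), followed by let-7b-5p from 2865 to 5190 (median 4123) and let-7a-5p from 2097 to 3252 (median 2752). The dimmest were let-7e-5p with a median of 242 and miR-98-5p with a median of 171. Of the opposite strands, 7 were detected on no array and the others were near the lower end of detection. Among these, let-7b-3p, detected on 5 arrays, had the highest median at 8.55. The highest single value was that of let-7d-3p, 10.9 in tumor 5, with a median of 2.19. Probes for sequences that differ by few bases may share signal, so the order of members is uncertain.

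Several families linked to cell growth were present on every array with a narrow range. The miR-17-92 cluster with its paralogs on chromosomes 5 and X, which Myc activates, had 13 of 27 members on all 6 arrays and 1.96% to 3.16% of the signal (median 2.64%). Its brightest members by median were miR-19b-3p and miR-20a-5p, with signals from 716 to 1273 and from 767 to 1420. The 5 base miRNAs with the seed AAAGUGC (miR-17-5p, miR-20a-5p, miR-20b-5p, miR-93-5p and miR-106b-5p) summed to 0.990% to 1.71%. The miR-15/16 list, whose members restrain cyclins and Bcl2, had 7 of 13 members on all arrays and 0.984% to 1.47%. The miR-23/27/24 clusters held 3.02% to 3.99%, the miR-30 family 0.908% to 1.37% and the list of miR-130 and miR-301 members 0.791% to 1.00%. In these 5 groups the highest tumor was 1.27-fold to 1.62-fold above the lowest.

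The miR-29 family, which targets collagen mRNAs, ranged more widely, from 0.731% in tumor 4 to 1.66% in tumor 5. Its main member miR-29a-3p had signals from 687 to 2573 (median 1069). Tumors 5 and 6 had the highest miR-29 shares, as they did for miR-21-5p. The miR-34 family, direct targets of p53, had 0.323% to 0.579%, and miR-34a-5p was detected in every tumor with signals from 340 to 1009. Of the Clcn5 intron cluster, 7 of 10 members were on all arrays with a summed share of 0.405% to 0.850%. The highest value, in tumor 5, came with a signal of 1444 for miR-188-5p, which was 169 to 344 in the other 5 tumors. The share of miR-188-5p alone was 0.589% in tumor 5, against 0.111% to 0.195% in the others. Some other members ran differently, with miR-362-5p, miR-362-3p and miR-532-3p highest in share in tumor 1. In tumor 5 miR-362-5p had its lowest share, 0.0129%. miR-210-3p, the miRNA most directly induced by hypoxia, had signals from 504 to 1001 (median 624) and varied little, with a share of 0.326% to 0.408% in the tumors.

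The remaining families were small and mostly even. The list of miR-103 and miR-107, which lie in introns of pantothenate kinase genes, held 0.626% to 0.880%, the miR-125 family 0.349% to 0.570%, the miR-26 family 0.407% to 0.510%, the miR-99/100 family 0.190% to 0.290%, and the miR-181 family 0.122% to 0.240%. Of the sensory cluster of miR-183, miR-96 and miR-182, 3 of 6 members were detected on all arrays, with a summed share of 0.139% to 0.208%, and miR-96-5p was its brightest member by median with signals from 106 to 260. The shares of let-7, miR-17-92, miR-15/16, miR-30, miR-103 with miR-107, miR-130 with miR-301, miR-99/100 and miR-181 were all lowest in tumor 5, in which the miR-466 group, miR-23/27/24, miR-29, miR-34, miR-125, the Clcn5 cluster and the miR-183 cluster were highest. For the Clcn5 cluster the high value came mainly from miR-188-5p. A share falls when others rise on the same array, so the shares of these groups are not independent. Of 24 miRNAs typical of embryonic stem cells, 3 were detected on all arrays. They were miR-290-5p (18.1 to 56.4), miR-294-3p (3.33 to 61.7) and miR-295-5p (2.23 to 13.7), and no member of the miR-302 family was detected in any tumor.

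**Figure D2:**
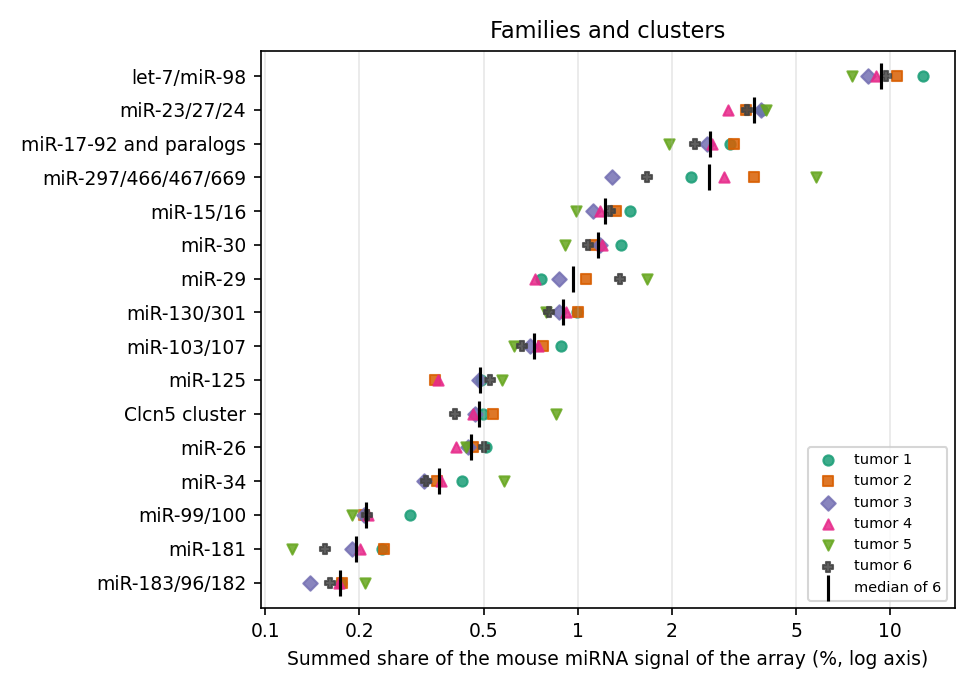
Summed share of the signal of 16 families and clusters in each control tumor, in percent on a log axis, with the median as a black bar. The let-7 family lies at 7.54% to 12.7% when its 3p strands are included, and the group of miR-297, miR-466, miR-467 and miR-669 is spread most widely, from 1.29% in tumor 3 to 5.77% in tumor 5.

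Arms were paired when their names were equal up to the 5p or 3p ending, which gave 384 hairpins. Arms with unequal names, such as miR-30c-5p and miR-30c-1-3p, were not paired and are not among them. Of the 384, both arms were detected on all 6 arrays for 38 hairpins. The 5p but not the 3p arm was so for 68, the 3p but not the 5p arm for 58, and neither for 220. Of the 38, the 5p arm was brighter in 6 of 6 tumors for 19 and the 3p arm for 9, and the order differed between tumors for 10. The brighter arm exceeded the other by a median of 5.52-fold. Since the arms are read by different probes, no ratio was tested against 0.

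In the miR-106b, miR-18a and miR-30 hairpins the 5p arm was brighter in every tumor. For miR-106b, a miR-17 paralog, the 5p signal was 460 to 737 and the 3p signal 5.43 to 11.4, a median log2 ratio of 6.16. For miR-18a, the median log2 ratio was 6.41, with an SD of 0.16 (n = 6). The 4 miR-30 hairpins with both arms paired by name all favored 5p. Their median log2 ratios were 5.68 for miR-30b, 5.36 for miR-30d, 3.86 for miR-30a and 3.07 for miR-30e, with SDs from 0.13 to 0.18. The 3p arm was brighter in miR-130b, with log2 ratios from -6.43 to -5.48 (median -5.68), and in miR-199a, with log2 ratios from -3.98 to -2.37 (median -2.87). In miR-17 and miR-140 both arms gave nearly equal signals, with median log2 ratios of 0.10 and -0.14 and SDs of 0.12.

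**Figure D3:**
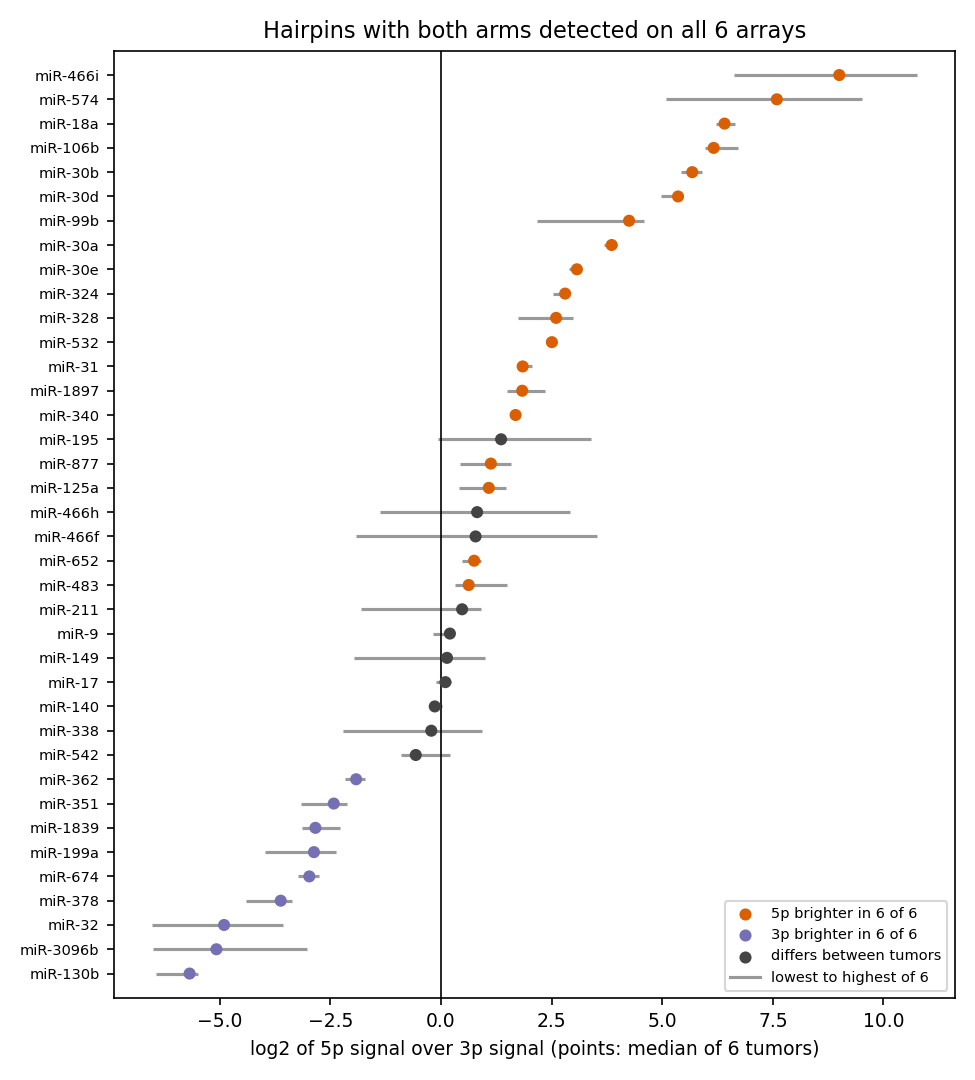
log2 of 5p signal over 3p signal for the 38 hairpins, paired by name, with both arms detected on all 6 control arrays. Points are medians of 6 tumors and grey lines run from the lowest to the highest tumor. Positive values mean a brighter 5p arm. The lines of miR-466f, miR-466i, miR-466h, miR-574 and miR-195 are the longest by SD.

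In other hairpins the brighter arm depended on the tumor. miR-211 lies in an intron of Trpm1 and is driven with it by the melanocyte factor Mitf. Its strands are
mmu-miR-211-5p: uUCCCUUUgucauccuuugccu
mmu-miR-211-3p: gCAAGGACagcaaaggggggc
The 5p signal was 391 to 814 (median 568) and the 3p signal 340 to 1367 (median 477). In tumor 5 the 5p strand was lowest and the 3p strand highest of all tumors, a log2 ratio of -1.81, while the other 5 tumors lay between -0.02 and 0.91. miR-149 behaved likewise, with a log2 ratio of -1.96 in tumor 5 against -0.13 to 1.00 elsewhere.

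The widest arm changes were those of miR-466f, miR-466i, miR-466h, miR-574 and miR-195, with SDs of the log2 ratio up to 2.27. For miR-466f the 5p strand was brighter in tumors 1, 2, 4 and 5 and the 3p strand in tumors 3 and 6. The ratio ran from -1.91 in tumor 3 to 3.53 in tumor 5. The miR-466f signals were low, 3.98 to 65.6 for the 5p strand and 3.91 to 17.7 for the 3p strand. The lowest detected signals of the arrays were 1.80 to 2.09. In miR-466i and miR-574 the 5p strand was brighter in all 6 tumors, so only the size of the ratio changed. The miR-297, miR-466, miR-467 and miR-669 names cover a large rodent family, many copies of which lie in an intron of the imprinted gene Sfmbt2, and 20 of its 61 array members were on all 6 arrays. Over all members detected on an array, the summed share was 1.29% in tumor 3, 1.66% in tumor 6 and 2.30% in tumor 1. It was 2.94% in tumor 4, 3.67% in tumor 2 and 5.77% in tumor 5. Most of it came from the 12 base members named 5p, at 1.11% in tumor 3 and 5.24% in tumor 5. Of these, miR-466i-5p alone held 1.00% to 4.44%.

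All 12 members of the group with 5p in the name had their highest share in tumor 5 and their lowest in tumor 3, and the shares spanned 4.42-fold for miR-466i-5p and 10.7-fold for miR-669f-5p. Of all 293 base miRNAs, 41 (14.0%) had this combination. The 3 members with 3p in the name ran the other way, with the highest share in tumor 3 or 6 and the lowest in tumor 2. The number of all base miRNAs that did so was not counted. Tumors 5 and 2 also had the highest total signal and the most detected miRNAs, and the part of total signal in this order was not tested. Members of this family are near copies of each other, so the signals of its members cannot be fully separated.

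**Figure D4:**
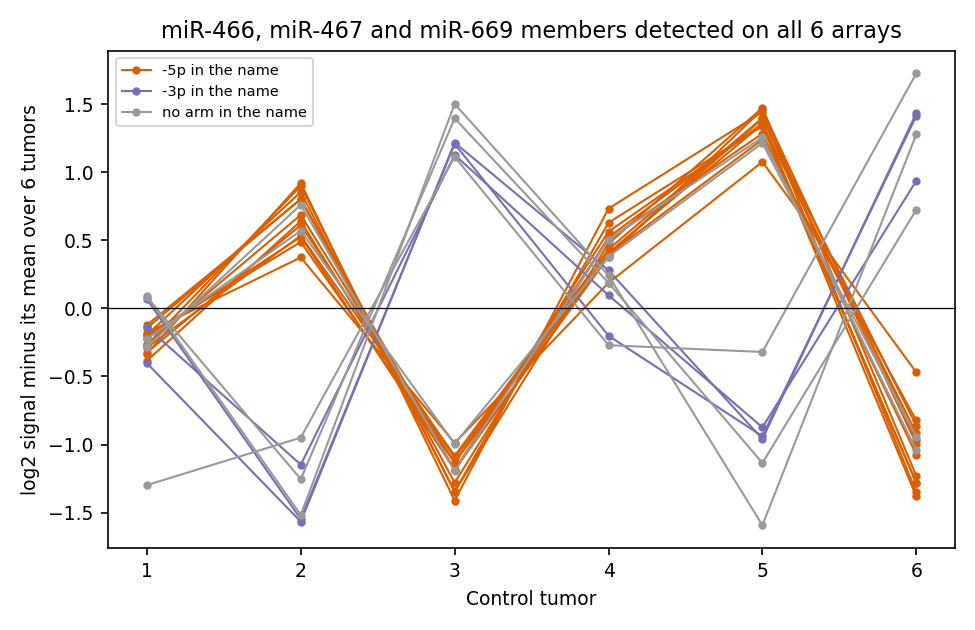
log2 signal of the 20 miR-466, miR-467 and miR-669 members detected on all 6 arrays, after quantile normalization, as the difference from their own mean over the 6 tumors. The 12 strands named 5p are high in tumors 2 and 5 and low in tumors 3 and 6, while the 3 named 3p are high in tumors 3 and 6 and low in tumors 2 and 5.

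A similar order appeared in some hairpins outside this family that hold the repeated letters GU. The 5p strand of miR-574 is rich in such repeats and its 3p strand in CA, as the sequences show. They are printed with 2 CA-rich strands of the group, again with the seed in capitals.
mmu-miR-574-5p: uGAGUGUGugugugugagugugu
mmu-miR-574-3p: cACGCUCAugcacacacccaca
mmu-miR-466i-3p: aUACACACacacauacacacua
mmu-miR-467f: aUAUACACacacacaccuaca
The miR-574-5p signal was 506 in tumor 3 and 4077 in tumor 5, whereas miR-574-3p was 2.87 in tumor 2 and 20.5 in tumor 6. Of the base miRNAs with a sequence, 9 of 231 (3.90%) hold GUGUGU on the mature strand, against 14 of 875 (1.60%) of all array miRNAs with a sequence. These 9 are miR-1187, miR-206-3p, miR-294-3p, miR-3082-5p, miR-32-3p, miR-466j, miR-574-5p, miR-669n and miR-672-5p. All of them had their highest share in tumor 5, as had 122 of all 293 base miRNAs (41.6%), and all but miR-206-3p had their lowest in tumor 3. Of the 9, miR-466j and miR-669n belong to the family above and 7 do not. The letters CACACA were held by 5 of 231 base miRNAs with a sequence (2.16%), against 10 of all 875 (1.14%). Of the 5, miR-466i-3p, miR-466q, miR-467f and miR-574-3p had their highest share in tumor 3 or 6 and their lowest in tumor 2 or 5. How many of all 293 base miRNAs had such an order was not counted. miR-342-3p did not have it and had an SD of 0.09 on the log2 scale. Of the 4 that had it, miR-574-3p alone lies outside the family. These letters were chosen after the tumor pattern had been seen.

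Markers of the cells that a flank tumor can hold were next compared. For the melanocytic lineage miR-211-5p was detected on all arrays, as given above, and miR-204-5p, which has the same seed, on 3 of 6 with signals up to 4.92. The epithelial list, with the miR-200 family, miR-203 and miR-205, had none of its 14 members on all arrays. No member of the miR-200 family was detected in any tumor, miR-203-3p was detected in tumors 2 and 5 at 5.27 and 5.15, and miR-205-5p, a miRNA of skin epithelium, at 10.0, 232 and 124 in tumors 3, 5 and 6. Tumors 1, 2 and 4 were below detection for miR-205-5p.

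Skeletal muscle miRNAs split the tumors. Of the 13 members of their list, 1 was on all arrays, 4 on some and 8 on none. miR-1a-3p, miR-133a-3p and miR-133b-3p were each detected in tumors 2, 3, 5 and 6 and in neither tumor 1 nor tumor 4. For miR-133b-3p the signals were 67.0 in tumor 5, 67.1 in tumor 3, 116 in tumor 2 and 176 in tumor 6, and tumor 6 was also highest for the other two. miR-206-3p, usually listed with them, was detected in every tumor (14.1 to 77.6) and was highest in tumor 5, and it is a member of the GU-repeat miRNAs above. Thus the defining muscle miRNAs varied between undetected and over 100 in signal, while all of these values lay below the brightest virus miRNA median of 195. Of the liver list 2 of 7 members were on all arrays, miR-192-5p (5.14 to 10.4) and miR-194-5p (3.78 to 8.27), while miR-122-5p, its defining member, was undetected in 5 tumors and at 7.05 in tumor 5. Of the neuronal list 5 of 18 members were on all arrays, with a summed share of 0.140% to 0.191%, most of it from miR-9 and miR-128-3p, while its defining member miR-124 was undetected in all 6 tumors.

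Some miRNAs of blood and stroma were detected in every tumor, many at signals below the virus miRNA median of 195, as were all values of miR-142-3p and miR-223-3p. miR-451, made by red cell precursors, had signals of 32.7 in tumor 3 and 595 in tumor 6, with a median of 209. Its hairpin neighbor miR-144-3p was detected in tumors 2 and 6, the tumors highest in miR-451. Of the 4 members of the erythroid list, 2 were detected on no array. By signal, the leukocyte miRNAs miR-142-3p (24.9 to 144) and miR-223-3p (48.4 to 159) were lowest in tumors 1 and 4 and highest in tumor 5. By share both were highest in tumor 6. The share of miR-142-3p was 0.0785% there and 0.0587% in tumor 5, and that of miR-223-3p 0.0702% and 0.0649%. miR-342-3p, also on the leukocyte list, hardly varied in normalized signal. Of the 12 members of that list, 5 were on all arrays, 2 on some and 5 on none. Of the fibroblast list, 6 of 11 members were on all arrays. Its miR-199a-3p, transcribed with Dnm3os in mesenchymal cells, was 64.3 in tumor 4, 76.7 in tumor 3 and 78.0 in tumor 1, and 189 to 274 in tumors 2, 5 and 6. The endothelial miR-126-3p was 119 in tumor 3 and 307 in tumor 2. Tumors 1, 3 and 4 were the 3 lowest in each of miR-142-3p, miR-223-3p, miR-199a-3p and miR-126-3p, which were chosen after their values were seen. How many of the base miRNAs had the same 3 lowest tumors was not counted. Total signal was 151170 in tumor 3, 152076 in tumor 1, 154722 in tumor 6 and 189430 in tumor 4. Other members of the same lists had another order. Of the leukocyte list, miR-146a-5p was highest in tumor 4 at 75.6 and lowest in tumor 2 at 50.6. Of the fibroblast list, miR-143-3p and miR-145-5p were highest in tumor 2 and lowest in tumor 6. For none of these lists was the part of total signal tested.

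The spread between tumors was set beside the software's own error. As signal differed between arrays, the 293 base values were quantile normalized before log2, which gives each array the same distribution and fixes the top-ranked miR-3963 at an SD of 0. The median SD over the 6 tumors was 0.39 on the log2 scale, compared with a median software error of 0.12, and 279 of 293 miRNAs had an SD above their own software error. The software error is that of a single array and leaves out technical differences between arrays, which the SD includes. The part of such differences in the SD was not tested. Without tumor 5 the median SD was 0.26. By brightness, it was 0.45 in the 98 dimmest miRNAs, 0.39 in the middle 97 and 0.31 in the 98 brightest. In 19 miRNAs the SD was above 1, a count that depended on the scaling and on the tumors. It was 32 with scaling to the 75th percentile of the base miRNAs, 45 without normalization and 6 with the deposited log2 values, and it was 12 without tumor 5, 30 without tumor 1, 29 without tumor 2 and 32 without tumor 4.

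The largest SDs were those of miR-199a-5p (1.41), miR-451 (1.34), miR-467f (1.33), miR-21-5p (1.25), miR-669f-5p (1.22), miR-574-3p (1.22), miR-466f-3p (1.20), miR-466g (1.18), miR-494-3p (1.18) and miR-466i-3p (1.16). Thus 5 of these 10 belong to the miR-466, miR-467 and miR-669 names. Before normalization the fibroblast miR-199a-5p had signals from 4.34 in tumor 4 to 46.3 in tumor 5. After it, its log2 signal was highest in tumor 6 at 5.79, against 4.72 in tumor 5. Its seed CCAGUGU is carried by
mmu-miR-199a-5p: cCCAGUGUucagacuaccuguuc
The smallest SDs, leaving out miR-3963, were those of miR-125a-5p (0.09), miR-342-3p (0.09), miR-503-5p (0.09), miR-23b-3p (0.11), miR-18a-3p (0.11), miR-96-5p (0.12), miR-210-3p (0.12), miR-31-3p (0.12), miR-23a-3p (0.13) and miR-700-3p (0.13). For miR-125a-5p, a let-7e neighbor, the normalized signal of the highest tumor was 1.18-fold that of the lowest. With scaling to the 75th percentile the SD of miR-503-5p was 0.29 and those of miR-125a-5p and miR-342-3p were 0.05 and 0.06.

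**Figure D5:**
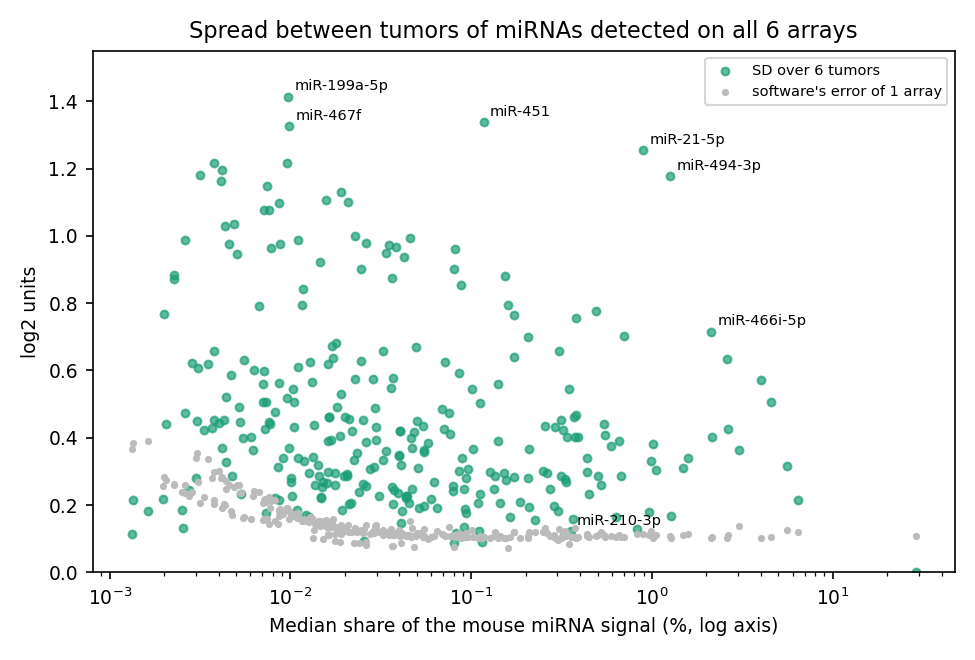
SD over the 6 control tumors of the log2 signal after quantile normalization (green) and the software's error of an array (grey), both in log2 units, against the median share of the signal in percent on a log axis. Each point is a miRNA detected on all 6 arrays. miR-21-5p, miR-494-3p and miR-451 stand out as bright miRNAs with SDs above 1, and miR-3963 at the right has an SD of 0 from the normalization.

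Across the 293 miRNAs, which are not independent replicates, the tumors resembled each other with Pearson's r from 0.92 to 0.98 on the log2 scale. Tumors 2 and 4 were most alike and tumors 1 and 5 least alike, and tumor 5 was the farthest from the median of 6 tumors for 155 miRNAs. In a principal component analysis the leading component held 47.4% of the variance and set tumor 5 at 11.4 against -5.78 to 3.30 for the other tumors, with the 5p strands of miR-466 and miR-669 at its positive end and miR-467f and miR-466i-3p at its negative end. The next component held 27.5% and separated tumors 3, 5 and 6 from tumors 1, 2 and 4, with miR-199a-5p and miR-21-5p as its leading miRNAs.

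The arrays lay on a pair of slides, with tumors 1 and 2 on slide 1 and tumors 3 to 6 on slide 2. By limma (quantile-normalized log2 signal, Benjamini-Hochberg adjustment over 293 miRNAs), 0 of 293 miRNAs (0%) differed between the slides, with a smallest adjusted p of 0.774 and 9 miRNAs at an unadjusted p below 0.05. With 2 against 4 arrays this does not show that the slides were alike. Precision throughout is limited by having 6 arrays.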

How the data were processed

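Total RNA of flank tumors was hybridized in 1 color (Cy3) to Agilent mouse miRNA arrays based on miRBase release 17. The authors deposited intensity values that the Feature Extraction software 10.10.1.1 made by subtracting the background. It sums the detected probes of each miRNA, calls it detected or not, and writes 0.1 for an undetected miRNA. The authors also deposited log2 values, which are quantile normalized. Here the intensities of 1079 mouse miRNAs on the 6 control arrays were used, without the virus miRNAs except where stated. Shares are percentages of the summed intensity of detected miRNAs. For the spread and the slide comparison, values of the 293 miRNAs detected on all 6 arrays were quantile normalized. The slides were compared by a two-sided test in limma 3.58.1 under R 4.3.3 (functions lmFit and eBayes, Benjamini-Hochberg threshold 0.05). The comparison was also run on simulated data with large shifts between slides, which does not show that small ones would be found. Normalization over these 293 miRNAs and not over all 1079 was chosen after the values were seen, because undetected miRNAs share 0.1.

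Named miRNAs were the 20 of highest median share, the 10 largest and 10 smallest SDs, hairpins with the 5 largest and smallest absolute arm ratios and the 5 largest SDs of the ratio, list members and leading seed families. Others, such as miR-574-5p, miR-188-5p and the GU-repeat miRNAs, were chosen after their values were seen. The members and lists were chosen with earlier results of these data known. The normexp alternative (offset 50) used spot medians, since the arrays give no spot means, whereas means had been planned. Names are those of the array design, and sequences and positions are RefSeq's on GRCm38.p6, matched by name or by an older gene name. The arrays were designed on mm9, so positions are RefSeq's and not the files'. Replicates are tumors, and the p-values judge the difference between slides against the spread between tumors. Depth is not defined for arrays.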

Additional observations from a re-analysis of the deposited data

Results flagged for a closer look

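In each set of 6 tumors the gap between the most extreme tumor and its nearest neighbor was compared with the whole range, and 5 of 89 quantities examined had a gap beyond Dixon's 95% critical value. Chance flags about 1 in 20 such sets. Of the 5, 4 were set apart by tumor 5. These were the share of miR-5126 (5.10%), the share of the Clcn5 cluster (0.850%), the log2 arm ratio of miR-9 (-0.18) and that of miR-211 (-1.81). In tumor 5 miR-188-5p alone held 0.589%, the larger part of the Clcn5 share. The remaining quantity was the share of the miR-99/100 family in tumor 1, at 0.290%.

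Of the 57 virus miRNAs on the arrays, which the mouse miRNA results do not use, 7 were called detected on all 6 control arrays. The brightest by median were mcmv-miR-M23-1-5p (129 to 230), mcmv-miR-m88-1 (93.9 to 160) and mghv-miR-M1-2-5p (21.5 to 246). Their source was not tested.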

How the results depend on the processing

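No paired analysis was possible because only the control group was used and its replicate numbers therefore pair no samples. The number of miRNAs detected on all arrays was 308 when 5 of 6 arrays were enough and 243 over all 13 arrays. The count of 0 miRNAs between slides held under every alternative run. The share of the 10 brightest miRNAs was 59.7% with the deposited log2 values, 45.5% with normexp, and 50.6% when miR-3963 was left out. With normexp the brightest miRNA held 20.8% and the let-7 and miR-98 family 7.12%, and the latter held 13.5% when miR-3963 was left out. The median SD was 0.49 without normalization, 0.59 with the 75th percentile of all mouse miRNAs as the scale, and 0 over all mouse miRNAs, most of which sit at the floor. With each tumor left out in turn the median SD ranged from 0.26 without tumor 5 to 0.42 without tumor 2. Normalizing over all mouse miRNAs, chosen after seeing the data, gave 0.40. Hairpins with the 5p arm brighter in 6 of 6 tumors numbered 87 when 1 arm detected on all arrays was enough. Causes beyond these constructions were not tested.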
